A study of Mus musculus with 6 samples.

Results

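The kinetochore and spindle checkpoint genes are 41 genes, chosen by symbol, that encode centromere proteins, kinetochore subunits, checkpoint proteins and the regulators of anaphase. All 41 were found among the 55401 mouse Ensembl identifiers of the count table, and 40 had enough reads to be tested. Bub3, which encodes a partner of the Bub kinases, was listed at 0 counts in all 6 libraries and has no value below. The RNA, enriched for poly(A), came from ADC106, a line of mouse angiosarcoma cells. One group of 3 libraries came from cells given 12.5 nM of a mimic labelled NC (genotype labelled WT), and the other group of 3 from cells given 12.5 nM of an miR-497 mimic (genotype labelled miR-497 overexpression). RNA was taken at day 3 in both groups, and both came from the same line, so a transfection is common to all libraries and untransfected cells were not analysed here. Nothing in the labels says that the 3 libraries of a group came from separate cultures, so the p-values measure the spread between these libraries, which may be technical.

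The kinetochore is the protein assembly that joins a chromosome to the spindle. A specialised histone, CENP-A, marks the centromere, a network of constitutive proteins sits on it, and the Ndc80 and Mis12 complexes with Knl1 reach from that network to the microtubules. The spindle checkpoint holds the cell at this step by keeping Cdc20 from activating the anaphase-promoting complex, a ubiquitin ligase, until every chromosome is attached; the complex then marks securin for destruction and separase cuts cohesin. Many of these genes are transcribed mainly in dividing cells late in the cycle. In bulk RNA, fewer cells in mitosis and less RNA per cell cannot be told apart.

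Mature miR-497a-5p (chr11:70234730-70234751, plus strand) is shown with members of its family because its seed, bases 2 to 8 in capitals, defines the sites sought in the transcripts. The sequences are those of RefSeq for GRCm38.p6, given 5′ to 3′.
miR-497a-5p: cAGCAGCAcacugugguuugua
miR-195a-5p: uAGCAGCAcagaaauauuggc
miR-16-5p: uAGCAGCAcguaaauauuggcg
miR-15a-5p: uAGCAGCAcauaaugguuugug
The 4 sequences share the seed AGCAGCA. Which strands the mimic carried was not given in the sources used here.

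A site was counted when the 3′ UTR held TGCTGCT (7mer-m8), the same letters followed by A (8mer) or GCTGCTA (7mer-A1), in the longest 3′ UTR of the gene's protein-coding transcripts in the GENCODE M21 annotation. Of the 40 tested genes, 6 had a site (15%), against 28.1% of the 12853 tested genes with a 3′ UTR. The median 3′ UTR was 802 bases long in the 40 genes and 1187 bases in all tested genes, so the shares are not matched for length. None of the 6 genes held an 8mer. Each site is printed with 11 bases on either side and the site in capitals, to show where the seed could pair.
Cenph (7mer-m8): tggaaccactcTGCTGCTtcagttttggg
Cenpn (7mer-m8): cttcctcccgcTGCTGCTtctcctcagaa
Cenpo (7mer-A1): ccgcccacaagGCTGCTAataggaacacc
Nsl1 (7mer-m8): gctcagtctccTGCTGCTgctctccacaa
Mad2l1 (7mer-A1): tcccatccacaGCTGCTAattgttgggtt
Fzr1 (7mer-m8): tcagggccaccTGCTGCTgttgacatctg
The sites began 96, 317, 2520, 3434, 2897 and 803 bases after the stop codon in Cenph, Cenpn, Cenpo, Nsl1, Mad2l1 and Fzr1. Nsl1 held a second, overlapping 7mer-m8 at 3437. The untested Bub3 held a 7mer-A1 at 1466.

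Transcripts of most of these genes fell with the miR-497 mimic. By the quasi-likelihood F-test of edgeR, adjusted by Benjamini and Hochberg's method over 14661 genes, 34 of the 40 tested genes were lower at an adjusted p under 0.05 and 0 were higher, where 26% of all tested genes were lower and 23.8% higher. At an unadjusted p under 0.05 the count was 36. The 6 genes not called were Cenpc1, Cenpt, Cenpm, Zwint, Mad1l1 and Fzr1. The median log2 fold change, miR-497 over NC, was -0.63 over the 40 genes and -0.02 over all genes tested. The changes were moderate: 3 genes (7.5%) were called and at least 2-fold lower, near the 5.19% of all tested genes. The fold changes ran from -1.19 for Cenph to 0.04 for Cenpc1, and 35 of the 40 lay among the lowest 25% of all tested fold changes. In 36 genes all 3 miR-497 values lay below all 3 NC values, as they did for 29.6% of all tested genes; the other 4 overlapped.

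The libraries held 25777676 to 36159499 counts in total. Levels are given as CPM, counts scaled to library sizes that TMM normalization had adjusted. The 11 endothelial markers listed to check the label were all detected. Their summed level was 9490 to 10200 CPM for NC and 9030 to 9560 CPM for miR-497. The blood-cell genes Ptprc, Adgre1 and Cd3e, though not Cd68, and the 4 epithelial genes were at or near 0. Of these Cdh1, the only one tested, was at 0.0302 to 0.284 CPM for NC and 0.361 to 0.441 CPM for miR-497 (log2 fold change 1.53, adjusted p = 0.069 in edgeR), with all miR-497 values above the NC values. The 5 mesenchymal markers summed to 191 to 201 CPM for NC and 247 to 292 CPM for miR-497. Among them Acta2 (log2 fold change 0.92) and Col1a1 (0.84) were called higher and Pdgfrb (-0.37) lower. Pdgfra and Des were not called. Behind the endothelial sum, Pecam1 (-0.52), Flt1 (-0.40) and Eng (-0.39) were called lower. Kdr was not called, and the rest were called higher, most of all Emcn (1.03). Of the 4 blood-cell genes, Cd3e was at 0 and nearly all of the sum was Cd68, at 8.03 to 8.38 CPM for NC and 14.9 to 19.5 CPM for miR-497. Cd68 was called higher (log2 fold change 1.08, adjusted p = 9.7e-07 in edgeR). The part of these markers in the results was not tested.

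**Figure D1:**
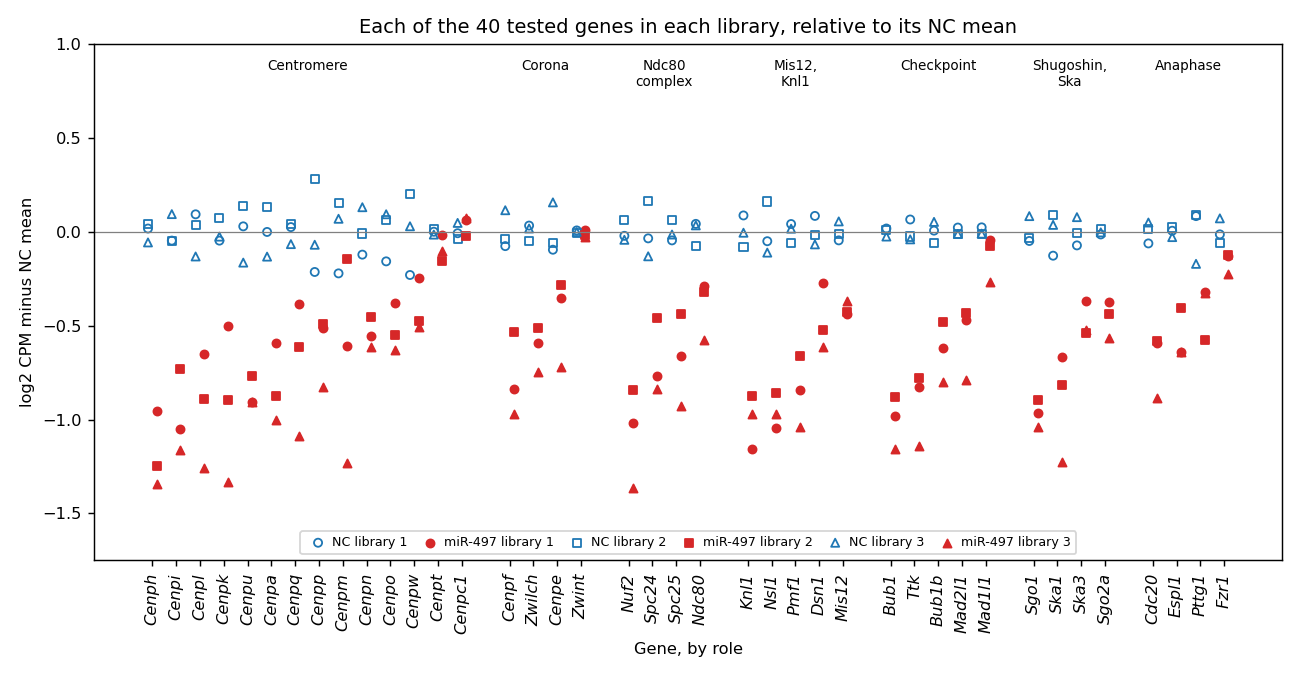
Level of each of the 40 tested genes in each library, as log2 CPM minus the gene's NC mean (vertical axis), with genes grouped by role and ordered by fold change (horizontal axis); open blue marks are NC and filled red marks miR-497 libraries, 1 shape per library number. Library 3 of the miR-497 group (red triangles) is the lowest of its group for 28 of the 34 called genes.

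Within the miR-497 group the fall was not equal. The mean of the 40 genes on the log2 CPM scale, relative to the NC mean, was -0.03, 0.03 and -0.0023 for libraries 1 to 3 of NC, against -0.56, -0.55 and -0.79 for those of miR-497. The third miR-497 library held the lowest value of its group for 28 of the 34 called genes. Without that library 33 genes were still called lower and the median log2 fold change was -0.53.

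The centromere genes, CENP-A and the network of constitutive proteins built on it, were lower for 11 of 14 genes, with a median log2 fold change of -0.65. Cenph (chr13:100759674-100775899 in GRCm38, minus strand) encodes a subunit of the network's CENP-H/I/K arm and held the 7mer-m8 printed above. Its levels were 14.5, 14.7 and 13.8 CPM with NC and 7.36, 6.01 and 5.61 CPM with miR-497. The groups were well apart, and the mean with miR-497 was 44.1% of that with NC. The log2 fold change was -1.19 (standard error 0.128; adjusted p = 8.3e-07 in edgeR). Its arm partners also fell, Cenpi by 0.97 and Cenpk by 0.89 on the log2 scale.

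Cenpa, the centromeric histone itself, read 47.7, 52.3 and 43.5 CPM with NC and 31.6, 26.0 and 23.8 CPM with miR-497. It fell by 0.82 on the log2 scale (standard error 0.0972; adjusted p = 2.3e-06 in edgeR). Cenpn, which reads CENP-A nucleosomes, carries a 7mer-m8 and went from 17.0, 18.4 and 20.3 CPM to 12.6, 13.5 and 12.1 CPM. The groups did not overlap, and the log2 fold change was -0.54 (standard error 0.101; adjusted p = 0.00025 in edgeR). Cenpo, of the outer CENP-O/P/Q/U arm, carries a 7mer-A1 and went from 13.2, 15.4 and 15.7 CPM to 11.3, 10.0 and 9.52 CPM. The log2 fold change was -0.52 (standard error 0.115; adjusted p = 0.0011 in edgeR), and 22.5% of its exon bases lie under genes of the opposite strand.

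The remaining called genes of the network had log2 fold changes of -0.93 for Cenpl, -0.88 for Cenpu, -0.67 for Cenpq, -0.63 for Cenpp and -0.42 for Cenpw. Reads of Cenpu and Cenpp could be shared with opposite-strand neighbours, which cover 26.7% and 12.6% of their exon bases, since no strand setting was given. The call of Cenpw, with adjusted p = 0.035, was lost with the replicate number as a block (adjusted p = 0.065), with upper-quartile scaling and without any 1 of 4 libraries, where the adjusted p reached 0.19. Cenpp lost its call without NC library 2 (adjusted p = 0.085).

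Cenpc1, the mouse CENP-C that links the centromere to the Mis12 complex, was not called. It read 30.0, 29.4 and 31.2 CPM with NC and 31.5, 29.7 and 31.7 CPM with miR-497, so the groups overlapped (log2 fold change 0.04 ± 0.0709 SE, adjusted p = 0.69 in edgeR). It was the only tested gene of the 40 with a positive value. Cenpt, which forms the second link to the outer kinetochore, read 29.5, 29.8 and 29.2 CPM with NC and 29.2, 26.4 and 27.5 CPM with miR-497 (-0.09 ± 0.0734 SE, adjusted p = 0.32 in edgeR). Cenpm had the fewest counts of the 40 genes, at 2.78, 3.62 and 3.41 CPM against 2.11, 2.93 and 1.35 CPM. Its log2 fold change of -0.62 (standard error 0.282; adjusted p = 0.081 in edgeR) rested on single libraries: it was -0.93 without miR-497 library 2 (adjusted p = 0.02) and -0.37 without miR-497 library 3 (adjusted p = 0.3).

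Genes of the corona, the outermost and most dynamic layer, were lower in 3 of 4 cases. Cenpf (chr1:189640606-189688086, minus strand), a large coiled-coil protein of late-cycle cells, read 111, 114 and 127 CPM with NC and 65.8, 81.1 and 60.0 CPM with miR-497. The groups did not overlap, with a log2 fold change of -0.77 (standard error 0.0882; adjusted p = 1.7e-06 in edgeR). The kinesin gene Cenpe fell by 0.45 and Zwilch, a subunit of the RZZ complex, by 0.62 on the log2 scale. Zwint (chr10:72654845-72674964, plus strand), the adaptor between Knl1 and the RZZ complex, read 512, 507 and 509 CPM with NC and 512, 504 and 499 CPM with miR-497. The log2 fold change was -0.01 (standard error 0.05; adjusted p = 0.87 in edgeR); the sign turned with DESeq2 size factors and with upper-quartile scaling.

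All 4 genes of the Ndc80 complex, the microtubule-binding rod, were lower. Nuf2 (chr1:169497934-169531464, minus strand), which pairs with Ndc80 at the microtubule end, had 61.6, 65.4 and 60.7 CPM with NC and 30.8, 34.9 and 24.2 CPM with miR-497. Its mean dropped to 47.9% of NC (log2 fold change -1.06 ± 0.1 SE, adjusted p = 1.8e-07 in edgeR). Ndc80 itself had the smallest fall of the rod, by 0.39 on the log2 scale, from 47.2, 43.5 and 46.9 CPM to 37.4, 36.7 and 30.7 CPM. Spc24, of the inner end of the rod, had the largest p of the 4: it went from 9.83, 11.3 and 9.20 CPM to 5.89, 7.30 and 5.61 CPM (-0.69 ± 0.146 SE, adjusted p = 0.0008 in edgeR). Spc25, its partner, fell by 0.67.

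All 5 genes of the Mis12 complex and Knl1 were lower as well. Knl1 (chr2:119047119-119105501, plus strand), the scaffold on which Bub1 and the other checkpoint proteins assemble, had 48.5, 43.2 and 45.5 CPM with NC and 20.5, 24.9 and 23.3 CPM with miR-497. The mean was 50.1% of NC (log2 fold change -0.99 ± 0.0823 SE, adjusted p = 3.7e-08 in edgeR). Nsl1, the Mis12 complex subunit with the overlapping pair of 7mer-m8 sites, had 29.2, 33.9 and 28.0 CPM with NC and 14.6, 16.7 and 15.4 CPM with miR-497. It fell by 0.96 on the log2 scale (standard error 0.0935; adjusted p = 2.4e-07 in edgeR). Its site-free partner Pmf1 fell by 0.84. Dsn1, with the largest p of this group, went from 34.6, 32.2 and 31.1 CPM to 27.0, 22.7 and 21.3 CPM (-0.47 ± 0.0902 SE, adjusted p = 0.00035 in edgeR). The smallest fall was that of Mis12, by 0.41.

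Of the checkpoint genes 4 of the 5 tested were lower. Bub1 (chr2:127801122-127831865, minus strand), the kinase that marks centromeric chromatin and recruits further checkpoint proteins, had the smallest p of all 40 genes. It read 76.5, 76.0 and 74.2 CPM with NC and 38.3, 41.1 and 33.8 CPM with miR-497. The mean was 49.9% of NC, with a log2 fold change of -1.0015 (standard error 0.0736; adjusted p = 9.2e-09 in edgeR). Ttk, the mouse Mps1 kinase that starts checkpoint signalling, fell by 0.91, and Bub1b, the BubR1 subunit of the mitotic checkpoint complex, fell by 0.63.

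Of the Mad genes, 1 was called. Mad2l1, the Mad2 protein that captures Cdc20, carries a 7mer-A1 and went from 54.1, 52.9 and 52.9 CPM to 38.5, 39.5 and 30.8 CPM. It fell by 0.56 on the log2 scale (standard error 0.0853; adjusted p = 3.8e-05 in edgeR). Mad1l1, the kinetochore platform on which Mad2 is converted, read 51.1, 49.8 and 49.9 CPM with NC and 48.7, 47.6 and 41.7 CPM with miR-497. Its 3 miR-497 values lay below its NC values, but the change of -0.13 (SE 0.0722) did not pass the threshold (edgeR adjusted p = 0.16). Without miR-497 library 3 it was -0.06 (adjusted p = 0.52), and with upper-quartile scaling -0.08 (adjusted p = 0.35).

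The protectors of centromeric cohesion and the Ska genes were lower in 4 of 4 cases. Sgo1 (chr17:53674786-53689333, minus strand), which shields centromeric cohesin until anaphase, read 29.7, 30.0 and 32.6 CPM with NC and 15.8, 16.5 and 14.9 CPM with miR-497. The log2 fold change was -0.97 (standard error 0.0838; adjusted p = 6.4e-08 in edgeR). Sgo2a fell by 0.46, although 35.04% of its exon bases lie under an opposite-strand gene. The Ska complex tracks microtubule ends. Ska1 fell by 0.90, and Ska3 went from 19.6, 20.5 and 21.7 CPM to 15.9, 14.2 and 14.3 CPM (-0.48 ± 0.0928 SE, adjusted p = 0.00037 in edgeR).

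Among the genes of anaphase onset, 3 of 4 were lower. Cdc20 (chr4:118432901-118437352, minus strand), the mitotic activator of the anaphase-promoting complex and the target of the checkpoint, read 84.4, 88.9 and 91.2 CPM with NC and 58.4, 58.9 and 47.7 CPM with miR-497. It fell by 0.68 on the log2 scale (standard error 0.0765; adjusted p = 1.3e-06 in edgeR). Fzr1, the Cdh1 activator that takes over at mitotic exit and in G1, carries a 7mer-m8 and read 62.2, 60.4 and 66.0 CPM with NC and 57.5, 57.7 and 53.8 CPM with miR-497. The groups did not overlap, but the change of -0.16 (SE 0.0648) did not pass the threshold (edgeR adjusted p = 0.053). It did not pass under any alternative either, with an adjusted p of 0.051 to 0.22 in edgeR or DESeq2. Securin, encoded by Pttg1, fell by 0.41, and separase, encoded by Espl1, by 0.56.

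To compare levels between genes, CPM was divided by the length of each gene's merged exons in kb. With NC, Zwint was the highest at 115 ± 0.533 CPM per kb (SD, n = 3). Cdc20 followed at 47.2 ± 1.85, Mis12 at 32.9 ± 1.17 and Bub1b at 26.4 ± 1.02 CPM per kb. These 4 were separated by more than their SDs. The lowest were Cenpk at 1.9 ± 0.0857, Cenpu at 1.87 ± 0.195 and Cenpw at 1.86 ± 0.276 CPM per kb, which did not differ beyond their spread. Cenpm at 2.02 ± 0.271 and Cenpo at 2.04 ± 0.189 CPM per kb lay within the SD of Cenpw and were not set apart from them. With miR-497 Cdc20 stood at 29.4 ± 3.4 and Zwint, still the highest, at 114 CPM per kb.

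**Figure D2:**
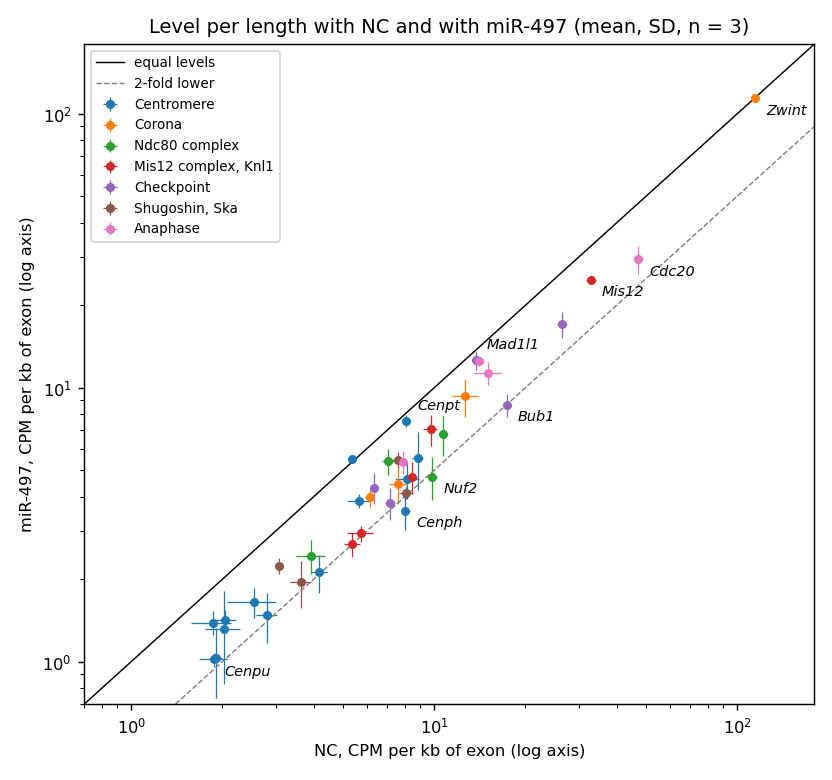
Mean level of each tested gene per kb of exon with NC (horizontal log axis) and with miR-497 (vertical log axis), with SD bars from 3 libraries and colours for roles. Zwint and Cenpc1 lie close to the line of equal levels, and Cenph, Nuf2 and Bub1 lie at or below the dashed line of 2-fold lower levels.

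Ratios within a library compare genes that act on one step without regard to library scaling. Of the 5 ratios that could be formed, 3 had groups that did not overlap. Among single genes tested, 29.6% lay wholly below and 27.8% wholly above NC. No share was computed for ratios of other genes, so nothing is read from the count of 3. The log2 ratio of Cdc20 over Fzr1, the activators of the anaphase-promoting complex, was 0.44, 0.56 and 0.47 with NC and 0.02, 0.03 and -0.17 with miR-497. It dropped by 0.53 (exact permutation test, 2-sided, p = 0.1, the smallest possible with 3 against 3; adjusted over 5 ratios 0.167). Mad2l1 over Mad1l1 was 0.08, 0.09 and 0.08 with NC and -0.34, -0.27 and -0.44 with miR-497, a drop of 0.43 (exact permutation p = 0.1, adjusted 0.167). Cenpe over Cenpf moved the other way, from -0.13, -0.13 and -0.07 to 0.37, 0.14 and 0.14, a difference of 0.33 (exact permutation p = 0.1, adjusted 0.167). The exact permutation test cannot give a p under 0.1 with 3 libraries against 3, so it can pass no ratio at 0.05.

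The other ratios overlapped between groups. Pttg1 over Espl1, securin over its target separase, was -1.12, -1.13 and -1.34 with NC and -0.88, -1.36 and -0.88 with miR-497, a difference of 0.15 (exact permutation p = 0.5, adjusted 0.625). Without miR-497 library 2 it was 0.31, and it was 0.07 to 0.08 without NC library 3, miR-497 library 1 or miR-497 library 3. Ndc80 over Mis12 was -1.02, -1.18 and -1.13 with NC and -0.96, -1.002 and -1.31 with miR-497. Its difference of 0.02 was smaller than the SD in either group (exact permutation p = 0.9, adjusted 0.9) and changed sign when single libraries were left out. No ratio of Bub1 to Bub3 was formed, since Bub3 was listed at 0.

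**Figure D3:**
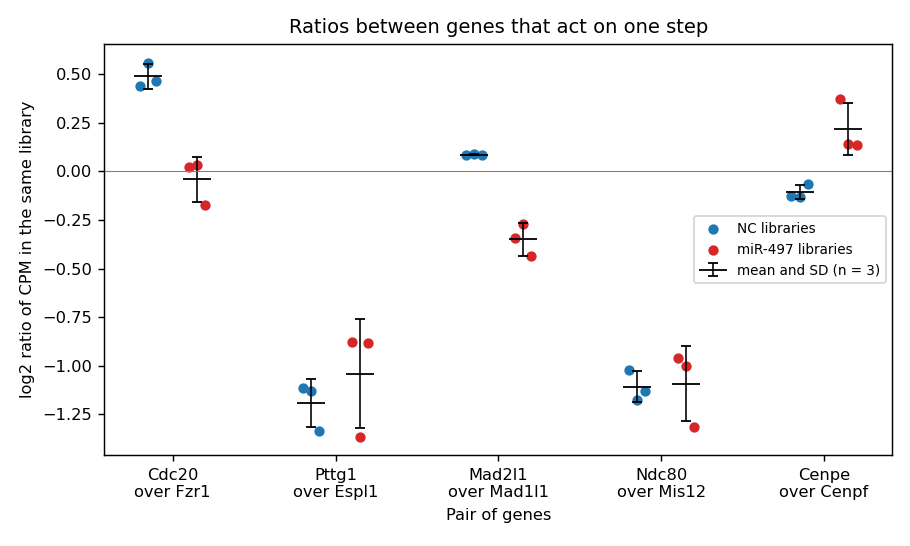
The log2 ratio of CPM of 5 gene pairs (horizontal axis) in each library (vertical axis), with points for libraries and black bars for the mean and SD of 3. The ratios of Cdc20 over Fzr1 and Mad2l1 over Mad1l1 are lower in all miR-497 libraries, Cenpe over Cenpf is higher, and the other ratios overlap.

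Genes with and without a site had medians close to each other. The 6 genes with a 7mer had a median log2 fold change of -0.55, and 5 of them were called lower. The 34 genes without a site had a median of -0.65, and 29 of them (85.3%) were called lower. Cenph and Nsl1 were among the largest falls, while Fzr1 had the smallest change of the 6. In the coding sequence, 8 of the 40 genes held the letters of a site (against 38.2% of tested genes). Their median was -0.66.

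Promoters were searched because genes of late cell cycle phases often share 2 elements there, the CHR, a binding site of the MuvB complexes, and the CCAAT box, bound by NF-Y. RefSeq windows (GRCm38.p6) from 250 bases before to 50 after the start were found for 36 of the 40 tested genes, with 40 windows in all; Zwilch, Nsl1, Ska1 and Spc24 had none. The CHR letters TTTGAA, on either strand, were in 14 of the 40 windows (35%), against 12.6% of the 13869 windows of tested genes and 17.9% of all 32851 windows. CCAAT, on either strand, was in 28 windows (70.0%), against 37.8% and 37.4%. Both were in 11 windows (27.5%), against 4.96% and 6.95%, and they overlapped in 1 of them. A match is a string of letters and not a measured binding site. No letters other than TTTGAA were sought for the CHR, so a window without them is not shown to lack one.

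To show how these motifs lie, the 150 bases before the start are printed for 4 genes with the motifs in capitals. Cdc20 and Espl1 were lower and hold both motifs. Bub1 was lower and Zwint was not called, and both hold CCAAT but not TTTGAA.
Cdc20 (chr4:118437344-118437493, minus strand): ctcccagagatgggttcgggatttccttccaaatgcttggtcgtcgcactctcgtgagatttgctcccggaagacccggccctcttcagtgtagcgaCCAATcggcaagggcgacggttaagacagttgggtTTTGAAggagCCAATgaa
Espl1 (chr15:102296143-102296292, plus strand): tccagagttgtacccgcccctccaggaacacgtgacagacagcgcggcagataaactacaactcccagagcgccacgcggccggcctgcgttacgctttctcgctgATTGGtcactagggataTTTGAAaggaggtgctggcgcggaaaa
Bub1 (chr2:127831860-127832009, minus strand): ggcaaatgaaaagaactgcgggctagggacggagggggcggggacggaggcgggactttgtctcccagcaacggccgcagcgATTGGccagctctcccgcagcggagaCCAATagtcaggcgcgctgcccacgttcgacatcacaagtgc
Zwint (chr10:72654696-72654845, plus strand): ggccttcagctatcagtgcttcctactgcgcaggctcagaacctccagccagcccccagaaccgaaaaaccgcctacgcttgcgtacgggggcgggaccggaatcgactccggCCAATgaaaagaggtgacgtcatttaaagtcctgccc
Counted from the start, TTTGAA begins at -18 in Cdc20 and -27 in Espl1. Over the tested genes that hold it, its position ran from -162 in Cenpl to 41 in Bub1b. In Bub1b, Knl1, Ndc80, Spc25, Cenpa, Ttk and Cenpf it begins after the start, outside such a stretch. The printed genes therefore do not give a usual position. CCAAT or its reverse begins at -53 and -8 in Cdc20, -44 in Espl1, -68 and -42 in Bub1 and -37 in Zwint, whose window holds another at 14.

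All 14 genes with TTTGAA in a window were called lower, with a median log2 fold change of -0.67 and a range from -0.99 for Knl1 to -0.39 for Ndc80. Of the 22 genes without it, 16 were called lower, with a median of -0.54 and a range from -1.19 to 0.04. Of the 6 genes not called, none had TTTGAA. Over all tested genes with a window, 475 of 1610 genes with it were called lower, at a median of -0.06, and 2463 of 9209 without it, at a median of -0.01. For CCAAT, 21 of 25 genes with it were called lower (median -0.67), and 9 of 11 genes without it (median -0.48). Over all tested genes, 1351 of 4661 with CCAAT in a window were called lower, at a median of -0.03. Of the genes not called, Cenpc1, Cenpm, Zwint and Fzr1 had CCAAT, and Mad1l1 and Cenpt did not. Nuf2, with neither TTTGAA nor CCAAT in its window, fell by 1.06. Whether either motif goes with the call was not tested.

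**Figure D4:**
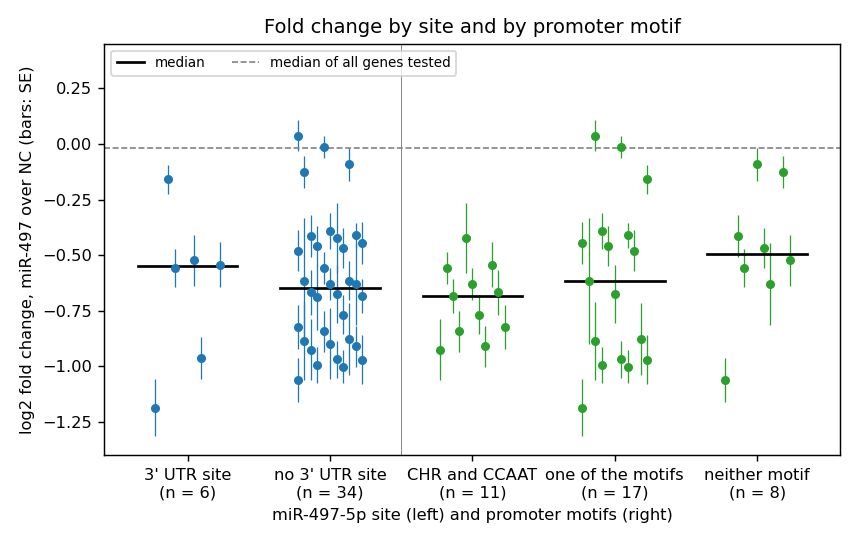
Log2 fold change of each tested gene with its SE (vertical axis), by miR-497-5p site in the 3′ UTR (left, blue) and by promoter motif in the 36 genes with a window (right, green); black lines are medians and the dashed line is the median of all genes. The groups with and without a site have medians of -0.55 and -0.65, and all 11 genes with both promoter motifs lie below -0.4.

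The partners of these genes were read from 7 lists of 56 genes. Beside each count stands the share over all tested genes, 26% lower and 23.8% higher. All 4 genes that load CENP-A were lower, a number that fell to 3 under each of the 6 other settings. Mis18a was the weakest call of the 4, at -0.26 with overlapping groups (adjusted p = 0.048 in edgeR). Hjurp, the CENP-A chaperone, read 251, 262 and 251 CPM with NC and 152, 168 and 149 CPM with miR-497 (log2 fold change -0.70 ± 0.0558 SE, adjusted p = 2.2e-08 in edgeR). Of 3 other centromere genes tested, Cenpx (-0.43 ± 0.075 SE, adjusted p = 0.00015 in edgeR) and Cenps were lower and Itgb3bp, the mouse CENP-R, was not called at 0.03; Cenpb was listed at 0. Of 6 further corona, checkpoint and Ska genes tested, 5 were lower, and Haspin was listed at 0. For Cenpb and Haspin, as for Bub3, a listed 0 is not shown to mean an absent transcript. Trip13, the ATPase that disassembles Mad2 complexes, read 42.0, 42.8 and 41.8 CPM with NC and 21.9, 24.5 and 18.5 CPM with miR-497 (-0.96 ± 0.0887 SE, adjusted p = 1.3e-07 in edgeR). Mad2l1bp, its adaptor p31comet, had values of 15.2, 13.7 and 15.8 against 16.8, 18.3 and 16.5 CPM, a change of 0.21 that did not pass (standard error 0.097; adjusted p = 0.089 in edgeR).

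All 4 genes of the chromosomal passenger complex, which corrects wrong attachments, were lower, and 3 were without NC library 2. Aurkb, its kinase, had the smallest p, with 67.3, 66.5 and 71.4 CPM against 36.2, 35.1 and 27.9 CPM (log2 fold change -1.05 ± 0.0866 SE, adjusted p = 3.6e-08 in edgeR). All 10 other genes of dividing cells were lower, with a median of -0.83 and a range from -1.27 for Aurka to -0.50 for Tpx2. Nusap1, a spindle protein, had the smallest p of that list, at 53.3, 51.1 and 52.4 CPM against 22.1, 23.8 and 19.98 CPM (-1.25 ± 0.0767 SE, adjusted p = 1.1e-09 in edgeR). Relative to NC, the mean of the 10 genes was -0.79, -0.79 and -1.09 on the log2 CPM scale for libraries 1 to 3 of miR-497, so library 3 was the lowest here too.

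Of the 17 genes for the subunits, E2 enzymes and inhibitor of the anaphase-promoting complex, 8 were lower (47.1%, against 26% of all tested genes) and 3 higher (against 23.8%), at a median of -0.14. The count of lower genes was 7 or 8 under every alternative tried. The lower genes included those for the mitotic E2 enzymes and the inhibitor: Ube2s (96.7, 109 and 102 against 51.8, 49.8 and 44.5 CPM; -1.07 ± 0.0699 SE, adjusted p = 2.2e-09 in edgeR), Ube2c (-0.79; 22.8% of its exon length overlaps a gene on the other strand) and Fbxo5 (-0.78). The other lower genes were subunits: Anapc15 (-0.51), Cdc27 (-0.43), Cdc23 (-0.27), Anapc5 (-0.19) and Anapc4 (-0.14, edgeR adjusted p = 0.043). Anapc15 shares 38.4% of its exon length with Tomt on the other strand, and Cdc23 shares 13.4% with Kif20a. The 3 higher genes were subunits too, so subunits were called in both directions. Anapc2, the cullin, read 176, 184 and 187 CPM with NC and 227, 229 and 230 CPM with miR-497 (0.32 ± 0.0501 SE, adjusted p = 4e-05 in edgeR), Anapc7 rose by 0.28 on the log2 scale (edgeR adjusted p = 0.0011) and Anapc10 by 0.43 (edgeR adjusted p = 0.0036). Anapc13, Anapc16 and Cdc16 also had values above 0 (0.21, 0.06 and 0.07) and were not called; 10.05% of the exon bases of Anapc13 lie under an opposite-strand gene.

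Of 10 cohesin genes, 4 were lower (against 26% of all tested genes) and 6 not called, at a median of -0.09. With so few genes, nothing is read from that share. Wapl, which releases cohesin from chromosomes, read 141, 139 and 138 CPM with NC and 93.3, 103 and 94.3 CPM with miR-497 (-0.53 ± 0.054 SE, adjusted p = 4.4e-07 in edgeR). The core genes Smc1a (0.14, edgeR adjusted p = 0.054) and Stag2 (0.13, edgeR adjusted p = 0.064) lay just above 0. Both were called higher under 4 other settings of scaling, filter or test. Other core genes lay below 0: Rad21 was called lower (-0.20, edgeR adjusted p = 0.0058), and Smc3 (-0.08) and Stag1 (-0.05) were not called.

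**Figure D5:**
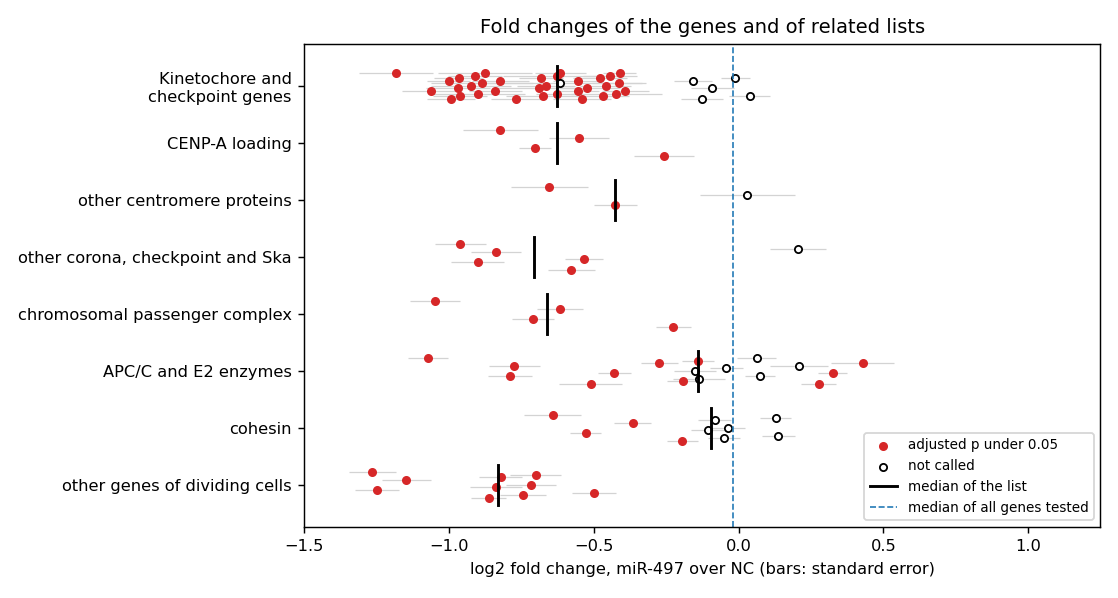
Log2 fold change with its SE (horizontal axis) of the 40 tested genes and of 7 lists of partner genes (vertical axis); filled points passed an adjusted p of 0.05, open points did not, black lines are list medians and the dashed line is the median of all genes. The 4 chromosomal passenger genes and 10 other genes of dividing cells lie to the left as the kinetochore genes do, and the anaphase-promoting complex and cohesin lists spread around 0.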

How the data were processed

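The authors deposited 1 table of unnormalized whole-number counts for the 6 libraries. The submitters' processing notes name STAR 2.5.4b, featureCounts, Subread 1.6.1, edgeR 3.32.1 and build GRCm38; the annotation, the strand setting and the handling of multiply aligned reads were not given in the sources used here. Symbols were attached by identifier (55141 of 55401 matched), and gene models came from GENCODE M21, which uses GRCm38. Counts were tested on the whole table with edgeR 4.0.16 in R 4.3.3 (filterByExpr with a minimum count of 10 and total of 15, TMM, quasi-likelihood F-test with the group as the only term, Benjamini-Hochberg, threshold 0.05). Log2 CPM used a prior count of 2, and a standard error is the log2 fold change divided by the root of F. Ratios of CPM were formed on that log2 scale and tested by exact permutation (scipy 1.17.1). The alternatives were DESeq2 size factors, upper-quartile scaling, no filter, the Wald test of DESeq2 1.42.0, a minimum mean count of 50, the replicate block, each library left out and, for ratios, a prior count of 0.5. The script was tested on simulated data. Genes shown with values per library were, in each of 7 roles, those with the smallest and largest p, any with a positive change and any with a site; from each list of partners, the gene with the smallest p and any against the list's majority. Cenpa, Cenpt, Cenpm and Ndc80 were added with their values in view. The genes and lists were chosen with earlier results of these data known. No p-value was adjusted over these genes alone.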

Additional observations from a re-analysis of the deposited data

How the results depend on the processing

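The number of kinetochore and checkpoint genes called lower was 33 to 34 under the 6 other settings and 32 to 34 on dropping single libraries, and 0 were higher throughout; their median log2 fold change was -0.65 to -0.58 and -0.71 to -0.53. Of 480 pairs of gene and alternative, 469 kept direction and side of the threshold. Zwint changed sign, at 0.004 with DESeq2 size factors, 0.0346 with upper-quartile scaling and 0.004 in the DESeq2 Wald test; the cause was not tested. Among partners, Itgb3bp lay between -0.0779 and 0.158 when single libraries were dropped. Cohesin genes called higher numbered 2 with DESeq2 size factors, upper-quartile scaling, a mean count of at least 50 and the DESeq2 Wald test, and 0 to 2 without single libraries, against 0; 1 further corona, checkpoint and Ska gene, Mad2l1bp, was higher with upper-quartile scaling. Genes that load CENP-A called lower numbered 3 in place of 4 under each of the 6 other settings. The ratio of Ndc80 over Mis12 differed by -0.049 to 0.127 without single libraries. No setting moved the median of all genes by more than 0.0466.

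In the fit with the replicate block, 33 genes were lower, and Cenpw was the call lost; the block was not applied to the ratios. Deviations of same-numbered libraries correlated at -0.119, -0.0351 and -0.133 across genes for numbers 1 to 3, so the numbers were not taken to pair the libraries. Depth limits Cenpm most, with 41 counts in its lowest library.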
